A study of Mus musculus with 8 samples.

Results

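The microglia markers described here are 9 genes that are commonly used to recognise microglia in brain tissue: Aif1, Cx3cr1, P2ry12, Tmem119, Csf1r, Trem2, Tyrobp, C1qa and Itgam. All probes that the deposited annotation assigns to these symbols were taken, which gave 12 of the 56605 probes on the array and 9 of its 26894 gene symbols. Cx3cr1, Csf1r and Itgam have 2 probes each and the other genes 1. The genes were measured with 1-colour Agilent arrays in RNA of the mouse dentate gyrus, a region of the hippocampus where neurons continue to be born in the adult. Each array gives the brightness of a Cy3-labelled sample at every probe. There were 4 groups of 2 arrays each. All mice were male C57BL/6 animals killed at 8 to 9 weeks of age, and all carried a floxed allele pair. Derlin-1 controls were Derl1 flox/flox and Derlin-2 controls were Derl2 flox/flox, both without the Cre transgene. The KO mice of each line carried the same floxed alleles together with Cre under the nestin promoter. The Derlin proteins sit in the membrane of the endoplasmic reticulum and help to remove misfolded proteins. The genotype field of the KO samples gives the floxed alleles only, so the KO groups rest on the sample titles. The transgene is carried by the KO groups alone, and no Cre-only group was analysed here.

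Microglia are the resident macrophages of the brain parenchyma. They derive from yolk sac progenitors, whereas the nestin promoter is used to drive Cre in the neural lineage, which gives rise to neurons, astrocytes and oligodendrocytes. Microglia depend on signalling through the receptor encoded by Csf1r, survey the tissue with motile processes, clear dying cells and newborn neurons that do not survive in the dentate gyrus, and tag material for removal with complement.

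The 4 promoter stretches below belong to the markers on which the comparison between arrays turned: P2ry12, Cx3cr1 and Trem2 varied together across the arrays, and the brighter Itgam probe did not vary with them. The sequences are the 250 bases before the gene start from RefSeq (GRCm38.p6), read 5′ to 3′ on the gene's strand. Promoters of 5 of the 9 genes were searched. Cx3cr1 lies at chr9:120068297-120068546 on the minus strand, P2ry12 at chr3:59262986-59263235 on the minus strand, Trem2 at chr17:48346151-48346400 on the plus strand and Itgam at chr7:128062390-128062639 on the plus strand. Capitals mark GAGGAA, the core letters bound by PU.1, the transcription factor of the myeloid lineage that Spi1 encodes, or its reverse complement TTCCTC.
P2ry12: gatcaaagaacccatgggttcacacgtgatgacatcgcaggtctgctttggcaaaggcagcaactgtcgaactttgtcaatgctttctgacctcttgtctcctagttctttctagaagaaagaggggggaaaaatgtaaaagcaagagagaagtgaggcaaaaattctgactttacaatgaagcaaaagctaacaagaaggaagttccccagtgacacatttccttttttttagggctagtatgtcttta
Cx3cr1: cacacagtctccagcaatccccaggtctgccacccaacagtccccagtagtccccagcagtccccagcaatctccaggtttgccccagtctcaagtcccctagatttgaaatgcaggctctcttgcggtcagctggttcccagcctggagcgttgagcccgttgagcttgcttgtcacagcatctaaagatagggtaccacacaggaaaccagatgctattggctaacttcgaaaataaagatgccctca
Trem2: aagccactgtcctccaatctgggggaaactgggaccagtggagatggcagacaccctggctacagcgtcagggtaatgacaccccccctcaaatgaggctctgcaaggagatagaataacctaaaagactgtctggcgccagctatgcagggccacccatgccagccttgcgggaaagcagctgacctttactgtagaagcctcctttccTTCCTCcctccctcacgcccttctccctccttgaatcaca
Itgam: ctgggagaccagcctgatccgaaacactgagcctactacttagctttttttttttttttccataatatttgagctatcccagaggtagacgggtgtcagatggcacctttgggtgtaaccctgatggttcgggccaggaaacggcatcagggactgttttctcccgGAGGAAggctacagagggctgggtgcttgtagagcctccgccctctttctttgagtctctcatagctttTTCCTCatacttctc
Searched on both strands, GAGGAA occurred once in the Trem2 stretch, beginning 40 bases before the start on the minus strand, and 2 times in the Itgam stretch, 84 bases before the start on the plus strand and 15 on the minus strand. It did not occur in the P2ry12 and Cx3cr1 stretches. The stretch of Aif1, which overlaps a longer annotated form of the gene and is not printed, held 1 match. Of 32851 promoter windows of the same length, 7639 or 23.3% held the letters, so their presence sets none of the markers apart. Tmem119, Csf1r, Tyrobp and C1qa had no entry. The Spi1 probe itself was well above background on 0 of 8 arrays.

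On each array 67.5% to 70.3% of the probes were well above background, no probe was saturated, and arrays of the same group correlated at r = 0.987 to 0.995 across probes. In the KO of Derlin-1, 1 of the 2 Derl1 probes was lower on both KO arrays than on both control arrays, by 0.20 on the log2 scale, and the other was higher by 0.46. In the Derlin-2 KO both Derl2 probes were lower, by 0.65 and 1.05, and none of these values passed the adjusted threshold. The arrays of a line shared a slide, and on each slide the controls lay at positions 1 and 2 and the KO samples at positions 3 and 4, so genotype and position cannot be told apart.

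All 12 probes of the microglia markers were well above background on all 8 arrays, so every gene that defines the set was detected. In whole tissue RNA, fewer microglia and less RNA per cell cannot be told apart. Signals below are log2 values after quantile normalisation over the 8 arrays, KO and control were compared by limma on all probes with Benjamini-Hochberg adjustment, two-sided, and each gene is given by its brightest probe unless stated. With 2 arrays a group an exact test of a single gene cannot go below p = 0.333, which is why the spread was shared across probes.

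None of the 9 markers passed the adjusted threshold of 0.05 in either line. For the Derlin-1 KO 0 of 39933 probes passed it (0%), and for the Derlin-2 KO 14 of 39787 (0.0352%), so the absence of calls among the markers is what most genes showed. The count of markers at an unadjusted p under 0.05 was also 0 of 9 in each line, beside 4.23% of all genes in the Derlin-1 comparison and 4.64% in the Derlin-2 comparison. No marker differed by 1.5-fold or more between KO and control, a size reached by 4.03% and 4.57% of all genes. The standard errors of the marker changes had a median of 0.14 on the log2 scale.

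**Figure D1:**
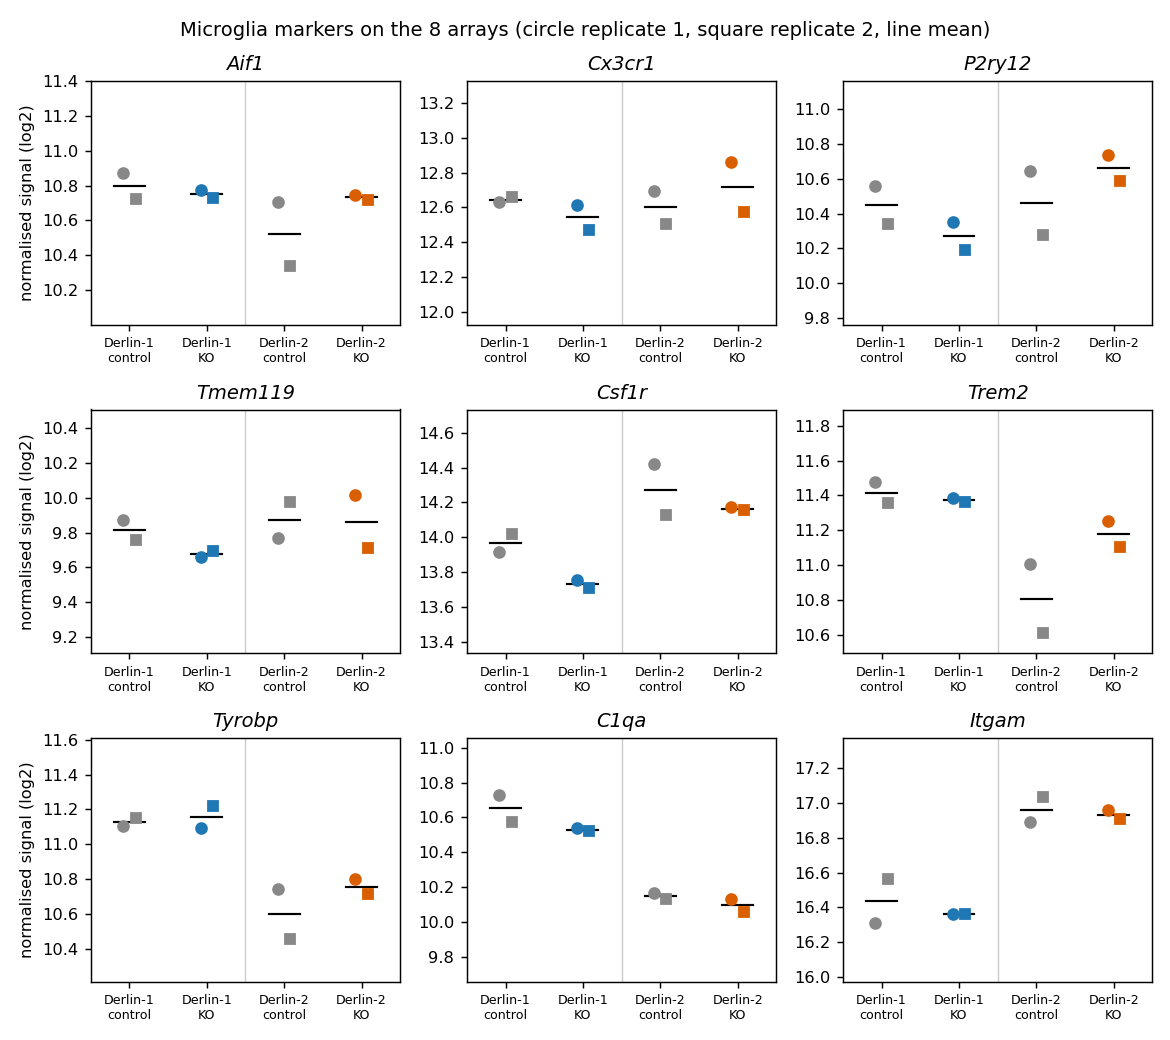
Normalised log2 signal (vertical axis) of the brightest probe of each of the 9 microglia markers in the 4 groups (horizontal axis). Circles are replicate 1, squares replicate 2 and bars the mean of 2 arrays. Every panel spans the same height on the log2 scale, and Trem2 in the Derlin-2 line and Csf1r in the Derlin-1 line are the genes with the largest separation of KO and control means.

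Csf1r encodes the receptor for CSF1 and IL-34 on which microglial survival depends. Its signal was 13.91 and 14.02 in the Derlin-1 controls and 13.75 and 13.71 in the Derlin-1 KO. Both KO arrays lay below both controls, and the difference of −0.24 (SE 0.13, n = 2 arrays a group, 95% confidence interval −0.54 to 0.07) was the largest of the markers in this line and did not pass the threshold (limma adjusted p = 0.9999). In the Derlin-2 line it was 14.42 and 14.13 in controls and 14.17 and 14.16 in the KO, where the ranges overlapped, with a difference of −0.11 (SE 0.13). The dimmer Csf1r probe gave −0.03 (SE 0.15) for Derlin-1 and −0.14 (SE 0.15) for Derlin-2, where its KO arrays of 9.97 and 9.94 lay below the controls of 10.03 and 10.16. The 2 probes of Csf1r thus placed the larger difference in different lines.

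Cx3cr1 encodes the receptor for the neuronal chemokine CX3CL1. Its signal was 12.63 and 12.66 in the Derlin-1 controls and 12.62 and 12.47 in the KO, so both KO arrays were below the controls, the higher of them by less than the distance between the controls. The Derlin-2 controls gave 12.70 and 12.51 and the KO 12.86 and 12.57, which overlapped. The differences were −0.10 (SE 0.14) for Derlin-1 and 0.11 (SE 0.14) for Derlin-2, and the dimmer probe gave −0.11 (SE 0.18) and −0.04 (SE 0.18). The sign in the Derlin-2 line therefore differed between the probes, with all intervals spanning 0.

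P2ry12, the ADP receptor that guides microglial processes towards released nucleotides, had signals of 10.56 and 10.34 in the Derlin-1 controls and 10.35 and 10.19 in the KO. In the Derlin-2 line the controls gave 10.64 and 10.28 and the KO 10.74 and 10.59. The groups overlapped in both lines, and the differences were −0.18 (SE 0.16) and 0.20 (SE 0.16). Tmem119, a membrane protein used to separate microglia from other macrophages, had 9.87 and 9.76 in the Derlin-1 controls and 9.66 and 9.69 in the KO, with both KO arrays lower and a difference of −0.14 (SE 0.14). Tmem119 in the Derlin-2 line was 9.77 and 9.98 in controls and 10.01 and 9.71 in the KO, a difference of −0.01 (SE 0.14), which is smaller than the gap between the arrays of either group.

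Trem2 is the lipid-sensing receptor of phagocytic microglia, and Tyrobp is the adaptor through which it signals. Trem2 showed the largest change of any marker. The Derlin-2 controls had signals of 11.00 and 10.61 and the KO 11.25 and 11.10, so both KO arrays lay above both controls. The difference was 0.37 on the log2 scale (SE 0.15, 95% confidence interval −0.01 to 0.74, 1.29-fold), with an unadjusted limma p of 0.0527 and an adjusted p of 0.919. Without Derlin-2 control replicate 2, the lowest array for Trem2, the difference was 0.17, and without control replicate 1 it was 0.56. In the Derlin-1 line Trem2 was 11.48 and 11.36 in controls and 11.39 and 11.36 in the KO, which overlapped, with a difference of −0.04 (SE 0.15). The difference between the 2 lines' Trem2 effects was −0.41 (SE 0.22, limma adjusted p = 0.8734), so a line-dependent effect was not shown.

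Tyrobp in the Derlin-2 line had 10.75 and 10.46 in the controls and 10.80 and 10.72 in the KO. Control replicate 2 was the lowest array, as for Trem2, the ranges overlapped, and the difference was 0.16 (SE 0.13). In the Derlin-1 line Tyrobp had 11.11 and 11.15 in controls and 11.09 and 11.22 in the KO, with a difference of 0.03 (SE 0.13), the only positive value among the 9 markers in that line. Syk, the kinase recruited by Tyrobp, gave −0.20 (SE 0.16) for Derlin-1 and −0.14 (SE 0.16) for Derlin-2.

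C1qa encodes a chain of C1q, the complement component that starts the classical pathway and which microglia supply in the brain. Its signal was 10.73 and 10.58 in the Derlin-1 controls and 10.54 and 10.52 in the KO, both KO arrays being lower, with a difference of −0.12 (SE 0.10). The Derlin-2 controls gave 10.16 and 10.13 and the KO 10.13 and 10.06, a difference of −0.05 (SE 0.10). C1qa had the smallest standard error of the markers. C1qc, another chain of the same protein, gave −0.15 (SE 0.15) and −0.12 (SE 0.15) in the same order.

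Itgam encodes CD11b, the alpha chain of complement receptor 3. Its brighter probe, which targets transcript variant 1, had 16.31 and 16.56 in the Derlin-1 controls, 16.36 and 16.36 in the KO, 16.89 and 17.03 in the Derlin-2 controls and 16.96 and 16.91 in the KO. The ranges overlapped in both lines and the differences were −0.07 (SE 0.12) and −0.03 (SE 0.12). The dimmer probe, which targets variant 2, had 5.52 and 5.63 in the Derlin-1 controls and 5.13 and 5.55 in the KO, a difference of −0.23 (SE 0.15). With Derlin-2 this probe had 6.13 and 6.19 in controls and 6.48 and 6.46 in the KO, so both KO arrays were above, with a difference of 0.31 (SE 0.15, limma adjusted p = 0.9683). Its effects in the 2 lines differed by −0.55 (SE 0.22, 95% confidence interval −1.08 to −0.01), with an unadjusted limma p of 0.0461 and an adjusted p of 0.8522, while the brighter probe gave −0.05 (SE 0.17). The processed signal of the brighter probe ran from 78110 to 148600 and that of the dimmer one from 36.2 to 86.5, so the probes of Itgam disagree in level and in the sign of the Derlin-2 difference. The brighter probe exceeded 99.47% to 99.77% of the probes of an array, and whether it reads Itgam alone was not tested. In place of the brighter probe, the dimmer one left 8 of 9 markers lower for Derlin-1 (median −0.12) and 6 of 9 higher for Derlin-2 (median 0.16). Itgb2, which encodes the beta chain that pairs with CD11b, gave −0.13 (SE 0.14) and −0.19 (SE 0.14).

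Aif1 encodes IBA1, the actin-binding protein stained to show microglia in sections. Its signal was 10.87 and 10.72 in the Derlin-1 controls and 10.77 and 10.73 in the KO, with a difference of −0.05 (SE 0.14) and overlapping ranges. The Derlin-2 controls gave 10.71 and 10.34 and the KO 10.75 and 10.72. Both KO arrays were above both controls, by a narrow margin to control replicate 1, and the difference was 0.21 (SE 0.14). Without control replicate 2 it was 0.03.

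**Figure D2:**
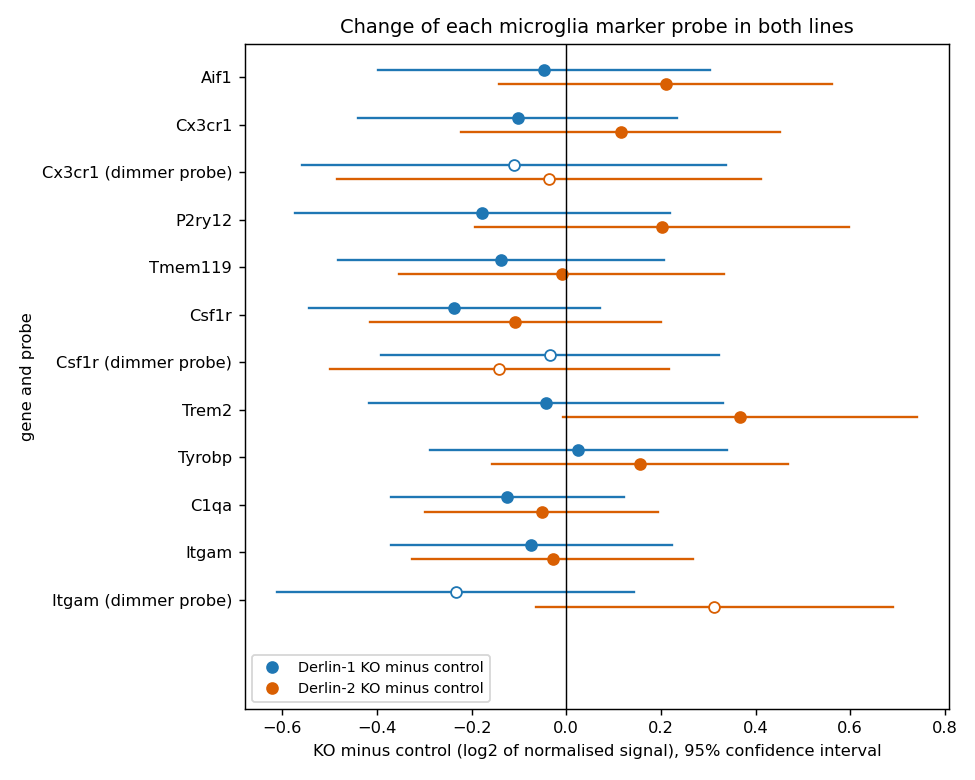
Difference of log2 signal between KO and control (horizontal axis) for the 12 probes of the microglia markers (vertical axis), in the Derlin-1 line (blue) and the Derlin-2 line (orange). Points are fitted differences of 2 against 2 arrays, bars 95% confidence intervals and open points the dimmer probe of a gene. All 24 intervals include 0, the nearest to excluding it being that of Trem2 in the Derlin-2 line.

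Counted over the 9 markers, 8 were lower in the Derlin-1 KO than in its controls, beside 55.9% of all genes, and their median difference was −0.10 beside −0.02 over all genes. Both KO arrays were below both controls for 4 markers (Cx3cr1, Tmem119, Csf1r and C1qa), beside 17.9% of all genes, and above for 0 markers, beside 16.2%. In the Derlin-2 line 5 markers were higher in the KO, beside 52.3% of all genes, with a median of 0.11 beside 0.01. Both KO arrays were above both controls for 2 markers (Aif1 and Trem2), beside 17.9% of all genes, and below for 0, beside 14.6%. The Derlin-2 median ran from −0.03 without Derlin-2 KO replicate 1 to 0.21 without Derlin-2 control replicate 1, and it was 0.02 without control replicate 2 and 0.20 without KO replicate 2, so single arrays decide its value. The Derlin-1 median ran from −0.12 to −0.07 when arrays were left out, but the count of lower markers also rests on single arrays. Aif1 (0.027) and Trem2 (0.019) were positive without Derlin-1 control replicate 1, and Itgam (0.053) without Derlin-1 control replicate 2. Tyrobp turned negative (−0.038) without Derlin-1 KO replicate 2. Cx3cr1, P2ry12, Tmem119, Csf1r and C1qa stayed negative with any array left out. The 9 genes were measured in the same tissue pieces and are not independent of each other.

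The difference between the lines (Derlin-1 effect minus Derlin-2 effect), for which the lines share no array, was negative for the brightest probe of 9 of 9 markers, beside 56.1% of all genes. It ran from −0.41 for Trem2 and −0.38 for P2ry12 to −0.05 for Itgam. The median was −0.13 beside −0.03 over all genes, and 0 of 9 passed the limma threshold or had an unadjusted p under 0.05, as against 2 of 39785 probes past the threshold (0.00503%). The sign turned for Tmem119, Csf1r, Tyrobp, C1qa and Itgam when particular single arrays were left out and held for Aif1, Cx3cr1, P2ry12 and Trem2 with any array left out. The dimmer Csf1r probe gave 0.11 (SE 0.21), so the probes of Csf1r differed in sign. The dimmer probes of Cx3cr1 (−0.07, SE 0.26) and Itgam (−0.55, SE 0.22) were negative. Averaged over both lines the markers had a median of 0.01, from −0.17 for Csf1r to 0.16 for Trem2, and 0 of 9 passed or had an unadjusted p under 0.05 (0.0101% of probes passed).

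The mean of the 9 markers was set on the mean of each line to follow the arrays. It was 0.07 and 0.03 in the Derlin-1 controls and −0.04 and −0.07 in the KO, both KO arrays being below both controls. The Derlin-2 controls had 0.04 and −0.14 and the KO 0.11 and −0.02. In that line control replicate 1 lay above KO replicate 2, so the groups overlapped, and control replicate 2 was the lowest array. Control replicate 2 was low for Trem2 (−0.38), Aif1 (−0.29), P2ry12 (−0.28), Tyrobp (−0.22) and Cx3cr1 (−0.15), and not for Tmem119 (0.11), Itgam (0.08) or C1qa (0.01).

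The markers did not vary as a single block. Over the 8 arrays, each set on its line's mean, the correlation of a marker with the mean of the others was 0.90 for P2ry12, 0.87 for Cx3cr1, 0.76 for Aif1, 0.74 for Trem2 and 0.58 for Tyrobp. It was 0.40 for Csf1r and for C1qa, 0.08 for Tmem119 and −0.29 for the brighter Itgam probe, whereas the dimmer Itgam probe gave 0.35. Among the 36 pairs 26 were positive, with a median of 0.29, the highest being Aif1 with Trem2 (0.95) and the lowest Aif1 with Itgam (−0.58). These values describe 8 arrays that share 2 slides. The 2 probes of a gene correlated at 0.32 for Cx3cr1, 0.23 for Csf1r and 0.24 for Itgam, which is lower than the values between the leading genes.

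**Figure D3:**
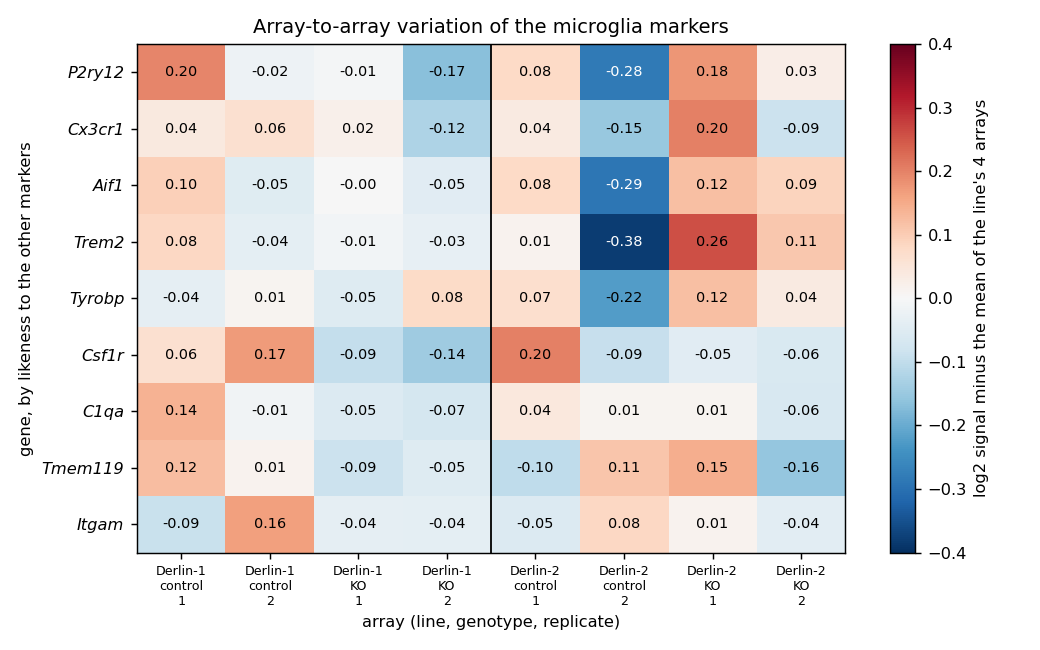
Log2 signal of the brightest probe of each microglia marker minus the mean of the 4 arrays of its line (colour and printed value), with arrays on the horizontal axis and genes on the vertical axis ordered by their correlation with the other markers. P2ry12, Aif1, Trem2, Tyrobp and Cx3cr1 are low together in Derlin-2 control replicate 2, and Tmem119 and Itgam are not.

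Among 18052 other genes detected on all 8 arrays, those most like the mean of the markers by the same measure were Guf1 (r = 0.99), Hvcn1 (0.98), Hmga2-ps1 (0.98), Trim12a (0.97) and Cpped1 (0.97), followed by Atad2, Sephs1, Phf24, Eda and Armcx2 (0.95). None of these 10 is on the lists of microglial or other cell type genes used here, and the choice of the highest of many correlations over 8 arrays gives high values in itself. The lists do not hold every microglial gene, and whether any of the 10 is expressed in microglia was not tested.

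Levels also differed between the lines, which were on separate slides, so line and slide cannot be told apart. For Trem2, Tyrobp and C1qa the 4 Derlin-1 arrays all lay above the 4 Derlin-2 arrays. Between the controls, Derlin-2 was lower by a log2 difference of −0.61 for Trem2, −0.53 for Tyrobp and −0.51 for C1qa. For Itgam and Csf1r the order was the opposite, with the Derlin-2 controls higher by 0.53 and 0.31. The dimmer Itgam probe showed the same order of lines and the dimmer Csf1r probe overlapped between them. Aif1 was lower in the Derlin-2 controls by a log2 difference of −0.28 with overlapping arrays, and Cx3cr1 (−0.04), P2ry12 (0.01) and Tmem119 (0.06) were close to 0. The gap between the control means thus exceeded both KO differences for Trem2, Tyrobp, C1qa, Csf1r, Itgam and Aif1.

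Other genes of microglia and their relatives were read from fixed lists. Of 20 further genes of resting microglia, all tested, 0 passed the threshold in either line. They were higher in 6 of 20 in the Derlin-1 KO (median −0.09) and in 11 of 20 in the Derlin-2 KO (median 0.01). Mertk, a receptor for the uptake of dying cells, gave 0.02 (SE 0.18) and −0.52 (SE 0.18), and Crybb1, a crystallin gene expressed in microglia, gave −0.45 (SE 0.22) and −0.14 (SE 0.22). Of 13 tested genes of the myeloid lineage 0 passed. There 1 was higher in the Derlin-1 KO (median −0.14), with both KO arrays below both controls for 8 of 13 beside 17.9% of all genes, and 8 of 13 were higher in the Derlin-2 KO (median 0.06). Cebpa and Cebpb, transcription factors of myeloid cells and of other tissues, gave −0.49 (SE 0.23) and −0.47 (SE 0.29) in the Derlin-1 line. The ligands and signalling partners of the markers had a median of −0.14 for Derlin-1 and 0.01 for Derlin-2, with 0 of 13 passing. At an unadjusted limma p under 0.05 the resting microglia genes counted 0 of 20 for Derlin-1 and 2 of 20 for Derlin-2. The myeloid genes counted 1 and 0 of 13, and the ligands and partners 0 and 0 of 13. Over all genes the shares were 4.23% for Derlin-1 and 4.64% for Derlin-2.

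Genes of complement and Fc receptors (0 of 10 passing, medians −0.09 and −0.09) and of lysosomes and phagocytosis (0 of 13 and 0 of 12, medians −0.03 and −0.08) gave no call. Ctsz, a lysosomal protease, gave −0.09 (SE 0.12) and −0.37 (SE 0.12, limma adjusted p = 0.8067), and Fcgr2b, an inhibitory Fc receptor, 0.15 (SE 0.17) and −0.54 (SE 0.17, adjusted p = 0.7771). Of the genes of activated or disease-associated microglia 0 of 17 and 0 of 15 passed, with medians of 0.01 and 0.06, and 9 of 17 were higher in the Derlin-1 KO and 10 of 15 in the Derlin-2 KO. Cst7, an inhibitor of cysteine proteases, gave 0.48 (SE 0.23), with both KO arrays above both controls, and 0.20 (SE 0.23). Apoe, also made by astrocytes, gave −0.07 (SE 0.11) and −0.27 (SE 0.11). Gpnmb, a membrane glycoprotein of phagocytic cells, gave 0.04 (SE 0.23) and −0.95 (SE 0.23, adjusted p = 0.5868). The counts at an unadjusted limma p under 0.05 were 1 of 10 and 1 of 10 for complement and Fc receptors. They were 1 of 13 and 1 of 12 for lysosomes and phagocytosis, and 1 of 17 and 2 of 15 for activated microglia. The shares over all genes were 4.23% for Derlin-1 and 4.64% for Derlin-2.

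Of the cytokines and chemokines, 0 of 10 tested genes passed for Derlin-1 and 1 of 10 for Derlin-2. That gene was Ccl8, a chemokine for monocytes, which was not well above background on either Derlin-2 control array. Ccl8 was higher in the KO (limma adjusted p = 0.0201), with a mean 6.58-fold the lowest signal well above background on the control arrays. Its probe passed the filter on dim probes only through the Derlin-2 KO, the group where it is high. That selection favours a difference, so the adjusted p is no support by itself. The call was lost with scaling to the 75th percentile (0.0772), normexp (0.414), an intensity trend (0.0591), the replicate block (0.184), only the line's own 4 arrays (0.477) and the authors' values (0.0676), and held without the filter on dim probes (0.0391). It held without Derlin-2 control replicate 1 or 2 (0.00657 and 0.0167) and was lost without any other array (0.0831 to 0.132). The 6.58-fold value is no strict lower limit, because that lowest signal does not cap every undetected spot. With normexp (offset 50) the log2 difference of Ccl8 was 0.66. Its probe lies in row 380 of the 384 rows of the array, and 4963 kept probes (12.4%) lie in the last eighth of these rows. In the Derlin-2 comparison 14 probes were called with those rows and 4 in a fit without them. Ccl8 was not tested in that fit, nor in one of probes detected on all 8 arrays. Whether position on the slide bears on the Ccl8 value was not tested. None of the 12 marker probes lies in these rows. The probes of Crybb1 (row 350), Irf5 (355), Gpnmb (365) and Gfap (375), whose values are given elsewhere, do lie there. Il1a, Il1b, Il6, Ccl7 and Il10 were on the array and did not pass the filter on dim probes.

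Markers of other macrophages were set beside the microglia markers because they share Csf1r, Cx3cr1, Tyrobp, C1qa and Aif1. Of 10 tested genes of border-associated macrophages, 0 passed in either line. Their summed signal was 17177 to 18466 in the Derlin-1 controls and 22257 to 24185 in the KO, and 12272 to 17893 in the Derlin-2 controls and 11489 to 12736 in the KO. Colec12, a scavenger receptor also made by other cells, gave 93.6% to 96.7% of these sums. Its own differences were 0.40 (SE 0.20) and −0.29 (SE 0.20). Without Colec12 the sums were 930.4 and 1096 against 1063 and 1074 for Derlin-1, and 585.3 and 785.6 against 612.2 and 566.0 for Derlin-2, so KO and control overlapped in both lines. Over all 10 genes, with Colec12, the median difference was 0.13 for Derlin-1, where 7 of 10 were higher. It was −0.24 for Derlin-2, where 1 of 10 was. These medians ran from −0.02 without Derlin-1 control replicate 1 to 0.23 with scaling to the 75th percentile for Derlin-1. For Derlin-2 they ran from −0.50 without Derlin-2 control replicate 1 to −0.05 without Derlin-2 control replicate 2. Without Colec12 the medians were 0.11 for Derlin-1, where 6 of 9 were higher, and −0.19 for Derlin-2, where 1 of 9 was. F13a1, a transglutaminase gene of these cells, gave −0.17 (SE 0.16) for Derlin-1 and −0.96 (SE 0.16, limma adjusted p = 0.3485) for Derlin-2. Siglec1 was not well above background in both arrays of any group. Of 11 and 10 tested genes of monocytes, neutrophils and lymphocytes 0 passed, with medians of −0.06 and 0.25, the latter 0.06 with normexp. S100a8 and S100a9, which encode the paired calcium-binding proteins of neutrophils and were chosen after their values were seen, account for the unadjusted calls given below. The fitted log2 differences of S100a8 were −1.15 for Derlin-1 (limma adjusted p = 0.9999) and 0.96 for Derlin-2 (limma adjusted p = 0.5643), and they are no measured fold, since the gene was not well above background in the Derlin-1 KO or the Derlin-2 controls. Those of S100a9 were −0.73 (limma adjusted p = 0.9999) and 1.55 (limma adjusted p = 0.3567). Ccr2, Ngp, Cd3g and Cd8a did not pass the filter on dim probes. At an unadjusted limma p under 0.05 the counts were 0 of 10 and 2 of 10 for border-associated macrophages. For the blood cells they were 2 of 11 and 2 of 10. Beside these, 4.23% of all genes for Derlin-1 and 4.64% for Derlin-2 had such a p. The part of such cells in the marker values was not tested.

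**Figure D4:**
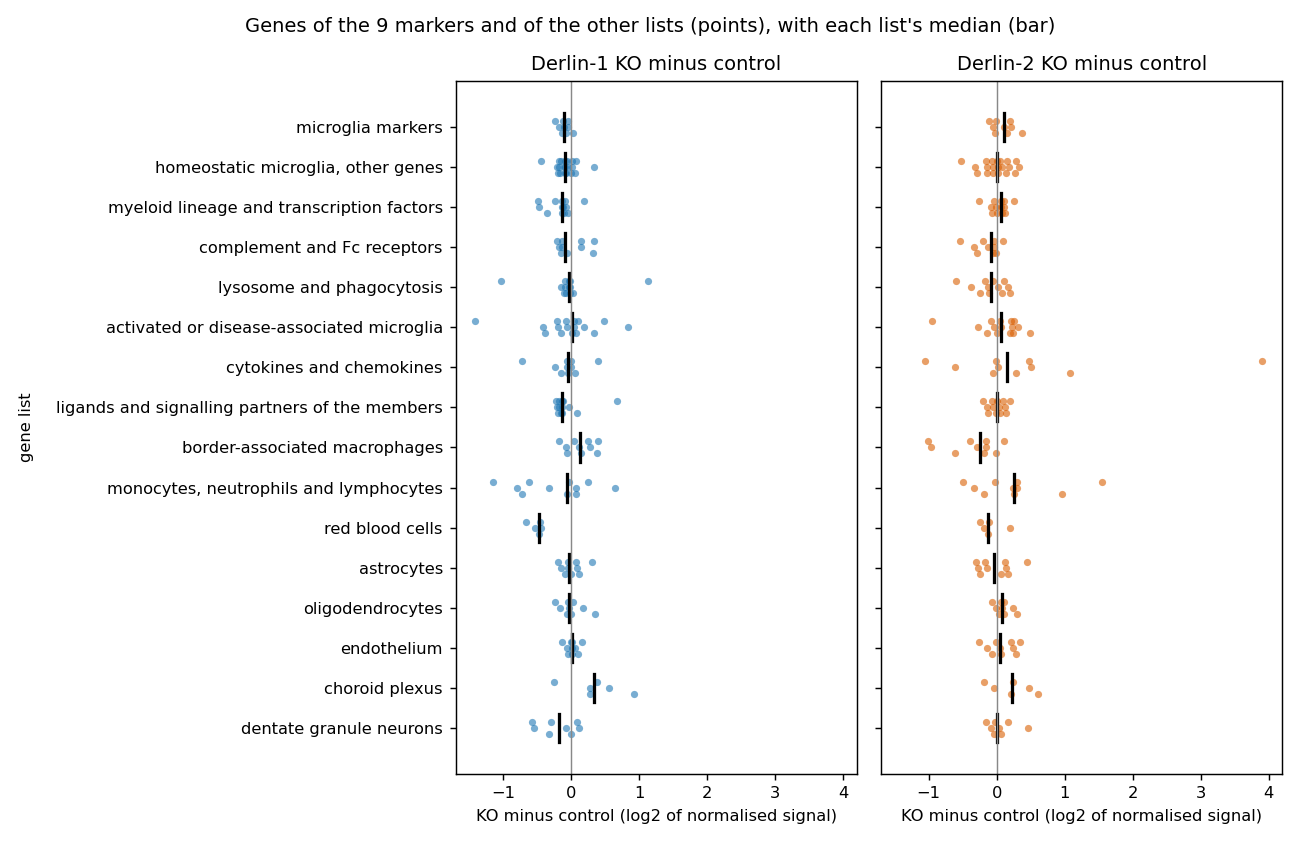
Difference of log2 signal between KO and control (horizontal axis) for genes of the 9 microglia markers and of the other lists (vertical axis), with the Derlin-1 line on the left and the Derlin-2 line on the right. Points are genes and bars list medians. The markers lie within −0.24 to 0.37, and the point at 3.91 in the Derlin-2 panel is Ccl8, a fitted value of a gene not above background in the controls.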

How the data were processed

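RNA of the dentate gyrus was hybridised to 8 arrays on 2 slides, and groups were taken from the sample titles. Per the file headers, each deposited intensity is a spot's brightness after subtraction of background and spatial detrending by Agilent Feature Extraction (version 10.7.1.1 per the submitters' processing notes), with flags for detection, saturation and outliers. The authors' deposited tables hold log2 values set on each probe's median over their samples, and served only as an alternative. The study's methods name quantile normalisation in GeneSpring, but within a line the differences between arrays in these tables matched those of signal scaled to each array's 75th percentile, up to a constant, within 0.01 for 100% of kept probes, and those after quantile normalisation for 6.03% to 19.0%. The alternatives with the authors' values and with that scaling are therefore nearly one. Their columns of fold changes were not used. The 3671 control spots and spots with an outlier flag were left out, repeated probes were averaged, and log2 processed intensity (floor 1) was quantile-normalised over the 8 arrays. The 39937 probes that were well above background on both arrays of at least 1 group were kept.

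A model of 4 group means was fitted by limma 3.58.1 in R 4.3.3 to all 8 arrays (4 residual degrees of freedom). Its two-sided p-values were adjusted over all probes. The fit was run on simulated data with changes planted in the Derlin-1 KO only. These were much larger than any change of a marker, so that run does not show whether changes of the markers' size could be found. The labels do not say whether the arrays of a group came from separate animals, so p-values measure the spread between these samples, which may be technical, and the number of arrays limits the precision. Besides all 9 markers with all probes, the text names genes of each list that passed the threshold and the 10 genes most like the markers. It also names some of the 3 genes per list with the smallest unadjusted p for the mean of both lines. Those not described elsewhere include Cst3 (log2 difference −0.18 for Derlin-1 and −0.31 for Derlin-2), Irf5 (−0.36 and 0.11) and Grn (−1.04 and −0.60). Maml2 (−0.58 and −0.02) and Tdo2 (−0.01 and 0.47) of the granule neuron list are others. The markers and lists were chosen with earlier results of these data known. Probe symbols come from the deposited tables. Alternatives were the scaling, background correction, filter, probe choice, samples in the fit, replicate block, variance trend, call rule, the authors' values, the last eighth of the array rows and each array left out.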

Additional observations from a re-analysis of the deposited data

Results flagged for a closer look

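In 10 of 157 listed genes tested, beside 5.64% of all genes, both KO arrays were below both controls in one line and above them in the other. Ccl8, S100a8 and S100a9 are given here as those with the largest gap between the lines, chosen after their values were seen. The signal of Ccl8 was 4.08 and 4.30 in the Derlin-1 controls and 3.35 and 3.59 in the KO, and 3.02 and 2.30 in the Derlin-2 controls and 6.45 and 6.67 in the KO. The fitted difference between the KO effects (Derlin-1 minus Derlin-2) was −4.629 on the log2 scale, with a limma adjusted p of 0.0649, and so did not pass the threshold. Its probe was well above background on 3 of 8 arrays, so the fitted value is no measured fold. The probe was kept in the test only through the Derlin-2 KO, the group where it is high.

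S100a8 had signals of 4.90 and 4.50 in the Derlin-1 controls, 3.27 and 3.83 in the KO, 3.03 and 3.27 in the Derlin-2 controls and 4.12 and 4.10 in the KO. The difference between its KO effects was −2.111 (limma adjusted p = 0.482), with the probe well above background on 4 of 8 arrays. S100a9 had 6.36 and 5.79 against 5.19 and 5.51 for Derlin-1, and 4.15 and 4.06 against 5.96 and 5.35 for Derlin-2. The difference between its KO effects was −2.278 (limma adjusted p = 0.492), with 7 of 8 arrays well above background.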

How the results depend on the processing

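None of the 9 markers was called under any alternative that used the adjusted threshold. Of 634 values of markers under an alternative, 600 kept their sign and 34 changed it. Many of the 634 could not change. The filters on dim probes, the replicate block, the variance trend and the fit of a line's own arrays leave the estimated difference as it was. Leaving out an array of the other line also leaves a line's difference as it was. The count of 600 therefore overstates how firmly the signs hold. With normexp on the median signal (the files hold no mean signal) the sign turned for Trem2 (0.026) and Tyrobp (−0.040) in the Derlin-1 line, Tmem119 (0.019) in the Derlin-2 line and P2ry12 (−0.0019) in the mean of both. With the mean over a gene's probes it turned for Itgam in the Derlin-2 line (0.14) and Cx3cr1 in the mean (−0.033). With the dimmer Itgam probe, chosen after seeing the data, Itgam gave 0.31 in the Derlin-2 line and 0.039 in the mean.

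Calls over all probes were 0 for Derlin-1, 14 for Derlin-2, 2 for the difference and 4 for the mean. For Derlin-2, the difference and the mean they were 2, 0 and 0 with normexp, 29, 0 and 7 without the filter on dim probes, 2, 0 and 0 for probes detected on all 8 arrays, 2, 0 and 0 with an intensity trend, and 4, 0 and 0 without the last eighth of the rows. The mean gave 2 with the authors' values, and Derlin-2 gave 0 with only its own 4 arrays. With the replicate number as a block all were 0. Numbers pair the samples only by name, with a correlation of deviations of 0.33 in the Derlin-1 and −0.15 in the Derlin-2 line. With the numbers crossed in the Derlin-2 line, chosen after seeing the data, all were again 0. At least 1.5-fold with no test gave 1829 for Derlin-1, 2246, 4721 and 883. With each array left out, calls ran from 0 to 1 for Derlin-1, 3 to 50 for Derlin-2, 0 to 16 for the difference and 0 to 20 for the mean. The causes were not tested.

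In the Derlin-1 line the marker values then ran from −0.12 to 0.027 for Aif1, −0.10 to 0.019 for Trem2, −0.038 to 0.088 for Tyrobp and −0.20 to 0.053 for Itgam. In the Derlin-2 line they ran from −0.028 to 0.26 for Cx3cr1, −0.16 to 0.14 for Tmem119, −0.25 to 0.039 for Csf1r and −0.098 to 0.040 for Itgam. For the difference they ran from −0.28 to 0.023 for Tmem119, −0.28 to 0.018 for Csf1r, −0.27 to 0.013 for Tyrobp, −0.15 to 0.0049 for C1qa and −0.17 to 0.082 for Itgam. For the mean they ran from −0.010 to 0.17 for Aif1, −0.065 to 0.078 for Cx3cr1, −0.078 to 0.10 for P2ry12, −0.15 to 0.0015 for Tmem119 and −0.11 to 0.012 for Itgam. The Derlin-2 median of the markers ran from −0.028 to 0.21.

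Of 540 medians of the other lists under an alternative, 60 moved by more than the spread between replicates. Part of the 540 could not move. The replicate block, the variance trend and leaving out an array of the other line leave a line's differences as they were. Without Derlin-1 control replicate 1 and 2 in turn, the Derlin-1 medians were −0.99 and 0.087 for red blood cells, 0.029 and 0.71 for the choroid plexus, and 0.036 and −0.44 for granule neurons. Without Derlin-1 KO replicate 1 and 2 they were 0.20 and −0.20 for oligodendrocytes and 0.010 and −0.53 for blood cells. The cytokine median ran from −0.15 to 0.098 for Derlin-1 and from −0.028 with normexp to 0.44 for Derlin-2, where the choroid plexus ran from 0.0022 to 0.65 and complement and Fc receptors from −0.23 to −0.0053. The causes were not tested.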

Other observations

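Genes of other cells of the dentate gyrus were read from the same lists, and 0 passed the threshold in either line by limma. The 5 tested genes of red blood cells were all lower in the Derlin-1 KO (median −0.47), and 1 of 5 was higher in the Derlin-2 KO (median −0.13). Alas2, the first enzyme of haem synthesis in red cells, gave −0.66 (SE 0.23, unadjusted p = 0.0261) in the Derlin-1 line by limma. The summed signal of these genes was 53073 and 115520 in the Derlin-1 controls and 54453 and 59969 in the KO, so control replicate 2 stood apart. Genes of the choroid plexus were higher in 5 of 6 in the Derlin-1 KO (median 0.33) and in 4 of 6 in the Derlin-2 KO (median 0.23).

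Genes of dentate granule neurons had medians of −0.18 and 0.01, with C1ql2, a secreted synaptic protein of these neurons, at −0.54 (SE 0.21) and 0.07 (SE 0.21). Astrocyte genes had medians of −0.03 and −0.04, with Gfap, the filament protein of astrocytes, at 0.30 (SE 0.14) and 0.13 (SE 0.14). Aldh1l1, a folate enzyme of astrocytes, gave −0.15 (SE 0.12) and −0.27 (SE 0.12), and S100b, a calcium-binding protein of these cells, −0.19 (SE 0.12) and −0.18 (SE 0.12). Both genes were lower on both KO arrays than on both controls in either line. Line by line, this held for 17.9% of all genes for Derlin-1 and 14.6% for Derlin-2. The share for both lines at once is not given here. Choice by the p for the mean of both lines favours genes that agree between them. Oligodendrocyte genes had medians of −0.03 and 0.08 and endothelial genes of 0.01 and 0.05. At an unadjusted limma p under 0.05 the counts for Derlin-1 and Derlin-2 were 1 and 0 of 5 for red blood cells. They were 0 and 0 of 6 for choroid plexus and 2 and 1 of 8 for granule neurons. Astrocytes had 0 and 0 of 10, oligodendrocytes 1 and 0 of 9 and endothelium 0 and 0 of 10. Over all genes the shares were 4.23% and 4.64%.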
